A study of Homo sapiens and Mus musculus with 28 samples.

Results

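DLD-1 cells whose GATA6 had been under degradation for 72 h were compared with control cells of the same degron line, as 3 libraries against 3, which are 6 of the 28 libraries of the series. They were chosen by their labels, not by their values. DLD-1 is a cell line long established from a human colorectal adenocarcinoma. All 6 libraries carry the genotype GATA6-AID-IAA7, in which GATA6 is fused to a plant-derived degron, and the labels speak of positive clones without saying which clone, or how many, gave each library. The 72 h cells grew in complete medium with 500 µM IAA (auxin, indole-3-acetic acid). The control cells are labelled with auxin for 0 h and were taken as cells without treatment. A further 3 libraries at 12 h of auxin, and 3 of cells given auxin for 12 h and then kept without it for 24 h, are set beside them, and the 16 libraries of knockout cultures and xenografts are not used. No untagged cells given auxin were among the degron libraries, so responses to IAA itself and to loss of GATA6 cannot be told apart. No measurement of the GATA6 protein was among the data used.

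GATA6 is a zinc-finger transcription factor that binds DNA at short motifs around the letters GATA. It takes part in the formation of the endoderm and, in the adult gut, is active in the crypts of the intestine and colon, where proliferating cells and stem cells lie. A degron tag brings the plant receptor-based ubiquitin machinery to the protein when auxin is present, so that the protein is lost while its gene stays in place. At 12 h the cells have had time for transcripts with short lives to follow the protein; at 72 h slower transcripts and secondary programmes can also have moved.

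Expected counts per gene, estimated by the authors, summed to between 18296428 and 21239316 in the control libraries and between 23618428 and 24732602 in the 72 h libraries. Levels are given as CPM, counts per 1000000 counts of the library, after scaling by edgeR's trimmed mean method, and the spread is the SD over 3 libraries (n = 3). A gene "rose" or "fell" where edgeR's quasi-likelihood test, over all 14029 genes tested, gave a Benjamini-Hochberg adjusted p under 0.05. The labels do not say that replicates were separate cultures, so the p-values measure the spread between these samples. Changes are given on the log2 scale with a standard error (SE), where 1 is a 2-fold difference.

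The labelled cell type was checked first. Of 12 transcripts of colorectal epithelium, 11 had a count in the 6 libraries and 8 could be tested. Of the rest, GPA33, CEACAM5 and LGALS4 had 3, 2 and 2 counts over the control libraries and 23, 24 and 5 at 72 h. The 12 together summed to 13550 to 14580 CPM of the library's total in control libraries and 16460 to 17110 at 72 h. Markers of endothelium summed to 8.67 to 10.2 CPM in control and 18.5 to 18.9 at 72 h, and those of fibroblasts, leukocytes and erythroid cells to at most 5.26 CPM in any of the 6 libraries. Of the endothelial genes tested 3 of 3 rose, of the leukocyte genes 3 of 5 rose and 1 fell, of the fibroblast genes 1 of 2 rose and 1 fell, and of the erythroid genes 0 of 3 were called (edgeR), with 0 of 3 at an unadjusted p under 0.05. The 72 h libraries stood apart from the other 9 degron libraries, at 38.5 to 41.4 on the first principal component against -15.9 to -6.55, a component that held 61.3% of the variance. They also differed in 3 measures of library content. Small structural RNAs summed to 166 to 206 CPM at 72 h and to 46.3 to 53.9 in control. The 36 genes whose transcripts have a GC content of 70% or more had a median change of -0.94, and 63.9% of them fell, while at 12 h their median was -0.05. Genes in the class of the longest transcripts had a median of 0.13, against -0.05 to 0.02 in the 4 shorter classes. The labels give no sequencing batch. The part of these measures in the results below was not tested, except by an offset for GC content and length. Its effect is given beside the named genes that lose their call with it and the lists whose balance it turns or evens.

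The libraries also held low levels of transcripts of other lineages, described by 2 lists written after the values were seen. Of 32 genes of plasma proteins made by liver cells, the fetal protein gene AFP had 25, 23 and 34 counts in the 72 h libraries, ALB had 13, 14 and 12 and APOA1 had 37, 44 and 44, and the 3 control libraries had 0 counts of each. The 32 genes together stood at 18.6 to 24.7 CPM at 72 h and at 4.31 to 6.34 CPM in the other 9 libraries. The largest parts of that sum in control and at 72 h were SERPINA1 and ITIH2, which had counts in every degron library. They held 195 and 39 counts over the control libraries and 393 and 521 at 72 h. In the opposite direction, of 28 genes of basal and keratinocyte cells, KRT6B had 39, 43 and 42 counts in control and 0 in each 72 h library, and GABRP had 42, 34 and 37 in control and 0 at 72 h. AZGP1, a zinc-binding glycoprotein gene, had 43, 54 and 66 counts in control and 3, 0 and 0 at 72 h. These transcripts were also present at 12 h and after washout, and so separated the 72 h libraries from all the others. That list did not move as one, since COL17A1 had 49, 65 and 47 counts in control and 203, 216 and 196 at 72 h. TRIM29, which had the most counts of the list, was not called, at 652 over the control libraries and 814 at 72 h. The 28 genes together stood at 30.2 to 30.6 CPM in control and 27.5 to 29.3 CPM at 72 h. Of the 28, 9 had 0 counts over the control libraries and 13 over the 72 h libraries. TP63, DSG3, IVL and SPRR1A were among those with 0 counts in every degron library. The liver list also holds PLG, plasminogen, and HP, haptoglobin, with 0 counts in each of the 6 libraries. Of the liver genes, 7 could be tested, 6 rose and 1 fell. Of the basal and keratinocyte genes, 16 could be tested, 2 rose and 9 fell, where 28.3% of all genes tested rose and 29.5% fell. Since both lists were written with the values known, these counts only describe them and support no conclusion. AFP, ALB and APOA1 could be tested only through their counts at 72 h. Whether these transcripts came from the cells or from other material was not tested and both kinds of gene count as members of the lists below.

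**Figure D1:**
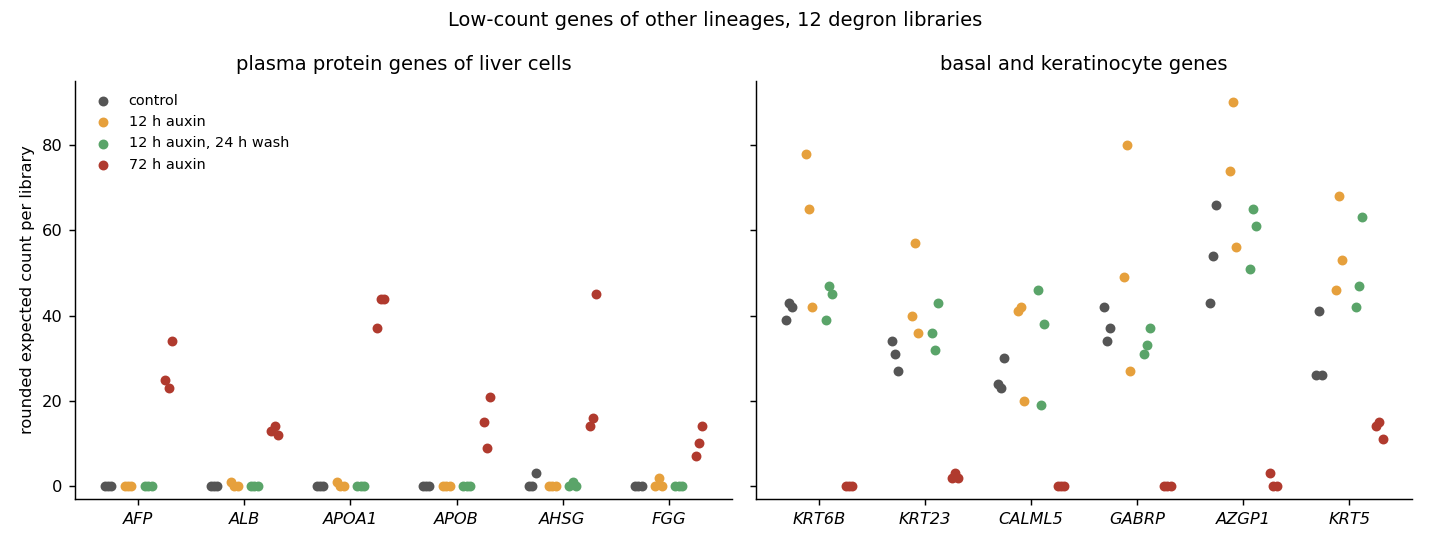
Rounded expected counts (vertical axis) of 6 plasma protein genes (left) and 6 basal and keratinocyte genes (right), 1 point per library, coloured by group. AFP, ALB, APOA1 and APOB were at 0 in control and present in each 72 h library, while KRT6B, CALML5 and GABRP were at 0 in each 72 h library and present in the other 9.

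The promoters of CLDN2, ABCB1 and CLIC5, which with LGR5 are the 4 marker genes of the response, are shown because GATA factors bind short words of this form. The word AGATAA, the word AGATAG, the word TGATAA and the word TGATAG were, on either strand, searched in windows from 250 bases before to 50 bases after each RefSeq start (GRCh38.p14), printed 5′ to 3′ on the strand of the gene with the matches in capitals. CLDN2 has 2 windows in the table and ABCB1 has 2, of which 1 each holds a match, and CLIC5 has 3, of which the one with most matches is shown. The windows are at chrX:106918110-106918409 (plus strand) for CLDN2, chr7:87713246-87713545 (minus strand) for ABCB1 and chr6:46080299-46080598 (minus strand) for CLIC5.
CLDN2: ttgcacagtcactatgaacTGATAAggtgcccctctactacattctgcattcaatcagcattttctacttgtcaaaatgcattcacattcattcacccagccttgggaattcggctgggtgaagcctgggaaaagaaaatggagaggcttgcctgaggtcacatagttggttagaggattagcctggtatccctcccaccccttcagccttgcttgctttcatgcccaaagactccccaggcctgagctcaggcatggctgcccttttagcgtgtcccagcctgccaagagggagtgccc
ABCB1: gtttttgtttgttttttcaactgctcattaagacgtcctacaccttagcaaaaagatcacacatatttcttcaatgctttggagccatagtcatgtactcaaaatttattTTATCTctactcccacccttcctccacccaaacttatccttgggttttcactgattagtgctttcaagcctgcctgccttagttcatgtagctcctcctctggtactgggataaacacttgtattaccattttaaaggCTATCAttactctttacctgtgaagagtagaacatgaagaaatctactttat
CLIC5: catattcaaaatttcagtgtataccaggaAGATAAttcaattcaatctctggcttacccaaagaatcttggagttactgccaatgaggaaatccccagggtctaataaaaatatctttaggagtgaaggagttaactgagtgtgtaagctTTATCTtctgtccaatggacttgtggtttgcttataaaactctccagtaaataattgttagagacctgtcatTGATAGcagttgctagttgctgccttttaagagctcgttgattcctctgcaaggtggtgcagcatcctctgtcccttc
CLDN2 and ABCB1, which were low at 72 h, held 1 and 2 matches, and CLIC5, which was high, held 3. A match is frequent by itself, at 25% of all 35116 windows and 29% of genes in any of their windows. Among the 25 lowest named genes described below, 15 were in the table and 6 held a match (MUC13, CXCL5, ABCB1, LRRC26, PTPRR and CLDN2). Among the 25 highest, 16 were in the table and 8 held a match. These counts describe the letters only, and no binding was measured here.

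The transcript of GATA6 itself (ENSG00000141448; hg38 chromosome 18, 22169443 to 22202528, plus strand), whose protein carries the degron, was at 43.2, 49.8 and 46.9 CPM in control and 31.4, 34.9 and 36 CPM at 72 h. The groups did not overlap, and the change was -0.45 (SE 0.0714; edgeR adjusted p = 7.43e-06). Since the degron acts on the protein, this transcript does not check the labels.

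CLDN2, the claudin that opens tight junctions to small cations and water (chromosome X, 106900164 to 106930861, plus strand), was at 43.1, 47.5 and 53.3 CPM in the 3 control libraries and 1.34, 1.27 and 1.24 CPM in the 3 libraries at 72 h. Every 72 h library lay far below every control library, a fall of 5.22 (SE 0.109), or 37.2-fold (edgeR adjusted p = 5.94e-22). At 12 h it had stood at 7.19, 6.82 and 6.81 CPM. The washout libraries, at 34.9, 35.3 and 32.8 CPM, were still under the lowest control library. Between 12 h and 72 h, 2 groups with no control in common, it changed by a further -2.43 (edgeR adjusted p = 1.28e-12), so the loss went on after the first 12 h. In bulk RNA, fewer cells with a transcript and less of it in each cell cannot be told apart.

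LGR5, the R-spondin receptor found on intestinal stem cells (chromosome 12, 71439770 to 71586310, plus strand), was at 68.2, 68 and 70.9 CPM in control and 5.89, 5.36 and 5.91 CPM at 72 h. The groups were apart by 12.1-fold (-3.59, SE 0.0758; edgeR adjusted p = 5.94e-22). The 12 h libraries had 24.5, 23.8 and 21.9 CPM and the washout libraries 59.8, 56.8 and 62.9 CPM, each group between control and 72 h. From 12 h to 72 h it changed by -2.03 (edgeR adjusted p = 2.58e-15).

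ABCB1, the drug efflux pump P-glycoprotein (chromosome 7, 87503633 to 87713323, minus strand), took another course. Control libraries held 55.7, 59.4 and 50.9 CPM, 12 h libraries 52, 51.5 and 46.7 CPM, washout libraries 26.6, 28.1 and 26.6 CPM and 72 h libraries 4.55, 4.24 and 4.27 CPM. The 12 h libraries overlapped the control range and did not pass the test (-0.14; edgeR adjusted p = 0.188), and the washout libraries were lower than those at 12 h. At 72 h the fall was 12.7-fold (-3.67, SE 0.0851; edgeR adjusted p = 4.04e-21), nearly all of it after 12 h (-3.52 between 12 h and 72 h; edgeR adjusted p = 3.5e-20).

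CLIC5, a chloride intracellular channel protein that ties the apical membrane to ezrin and actin (chromosome 6, 45880827 to 46080348, minus strand), went up. Control libraries held 19.5, 19.9 and 19.2 CPM, those at 12 h 31.4, 32.6 and 35.6 CPM, those after washout 25.7, 23 and 22.9 CPM and those at 72 h 102, 102 and 96.9 CPM. No 72 h library came near the others, and the rise over control was 5.14-fold (2.36, SE 0.0653; edgeR adjusted p = 2.17e-19).

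**Figure D2:**
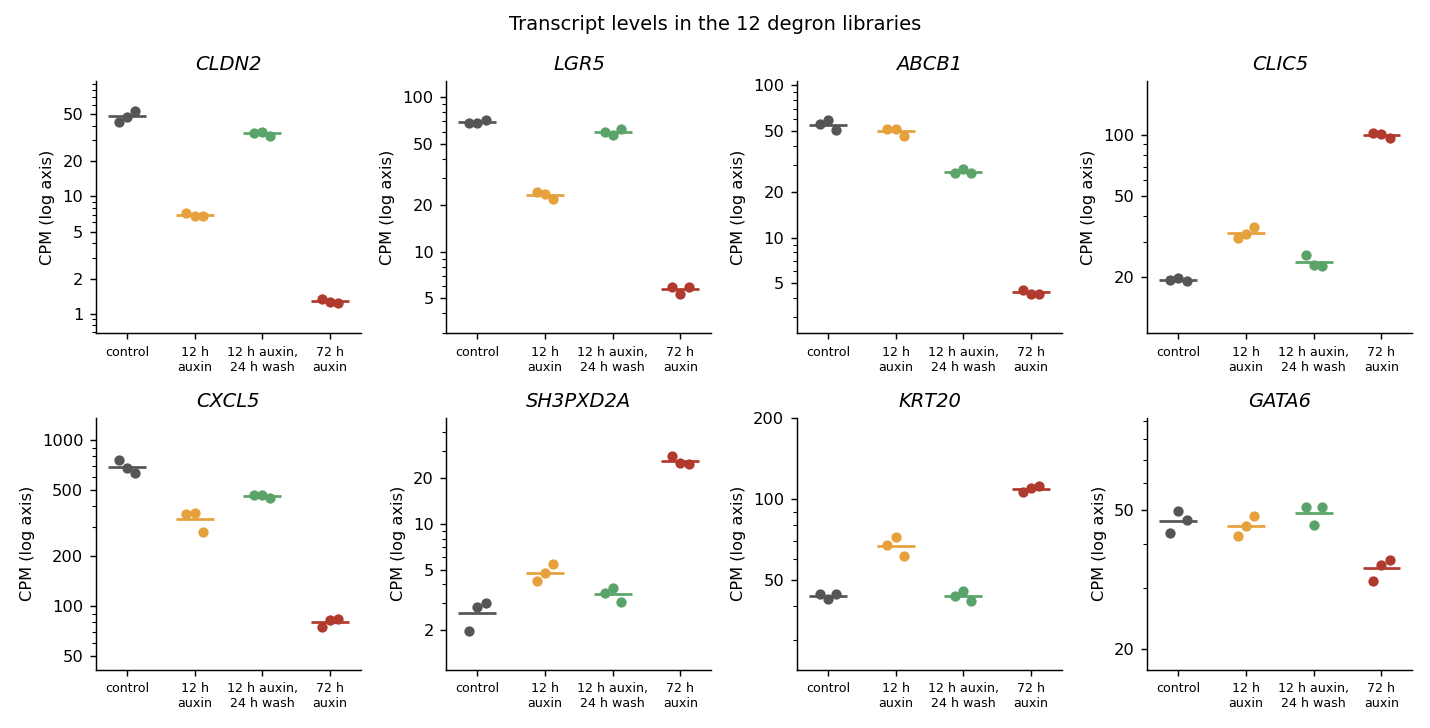
CPM (vertical axis, log scale, each panel with its own range) of 8 transcripts in control, 12 h, washout and 72 h libraries; each point is 1 library and each line a group mean (n = 3). CLDN2, LGR5 and CXCL5 were lower at 72 h than at 12 h, ABCB1 was low at 72 h only and intermediate after washout, and CLIC5, SH3PXD2A and KRT20 were highest at 72 h.

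Over all genes tested, 57.8% passed the test at 72 h, with 3964 higher (28.3%) and 4140 lower (29.5%). The groups did not overlap for 63.9% of genes. Of the genes that passed, 675 higher and 909 lower ones were within 0.25 of no change, and 673 higher (4.8% of all genes tested) and 396 lower ones (2.82%) reached 2-fold or more. Of those 1069 genes, 397 had a mean of 5 CPM or more in either group. Scaled to total counts, the median of all genes moved to 0.12 and the split became 5412 higher and 2911 lower. On log2(TPM + 0.5), where TPM is the authors' length-scaled value, the median also moved to 0.12 and 4466 genes were higher and 2408 lower. A count of members per list is therefore read against 28.3% and 29.5%, and the count under total-count scaling is given for lists whose balance it turns or evens, among others. At 12 h, with the same control libraries, 7.39% of genes were called (567 higher and 470 lower), and 16 (0.114%) and 31 (0.221%) of them by 2-fold or more; the shares of all genes were 4.04% and 3.35%. The 72 h and 12 h libraries differed from each other in 55.4% of genes.

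**Figure D3:**
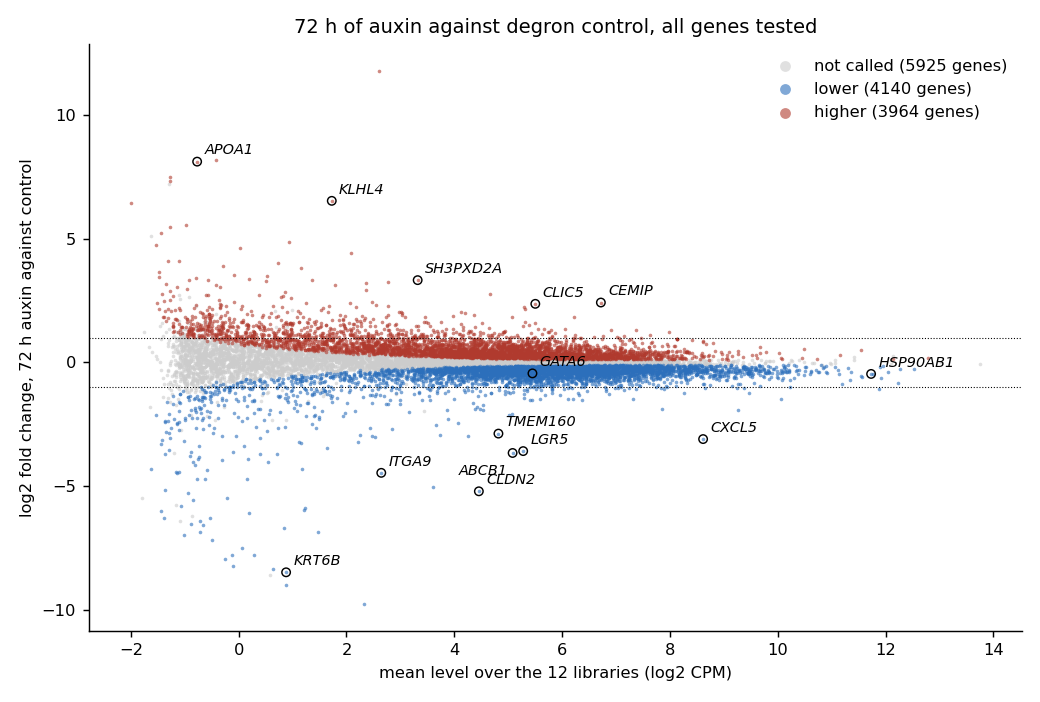
Log2 fold change at 72 h against control (vertical axis) by mean level over the 12 degron libraries (horizontal axis, log2 CPM) for the 14029 genes tested; red and blue points passed the test, dotted lines mark 2-fold changes. The 3964 higher and 4140 lower genes lie mostly within the dotted lines, and CLDN2, LGR5, ABCB1 and CXCL5 lie far below the mass of genes of their level.

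The 25 lowest and 25 highest named genes were taken from genes that passed the test and whose groups did not overlap. Separate groups in these genes are thus part of how they were chosen. Among the 25 lowest named genes, several encode surface and secreted proteins. CXCL5, a neutrophil-attracting chemokine, was at 759.6, 685 and 633 CPM in control and 74.6, 83 and 83.8 CPM at 72 h, an 8.61-fold fall (-3.11, SE 0.109; edgeR adjusted p = 1.38e-09). The 12 h libraries, at 361, 366 and 281 CPM, lay between the control and 72 h libraries. ITGA9, the integrin subunit that binds tenascin and other ligands, was at 12.7, 11.2 and 16.3 CPM in control and 0.765, 0.386 and 0.639 CPM at 72 h (-4.47, SE 0.232; edgeR adjusted p = 2.76e-12). TNC, the matrix protein tenascin-C, fell from 22.5 ± 2.82 to 4.15 ± 0.627 CPM, with 20.8 CPM at 12 h, a level that did not pass the test there (-0.11). PTPRR, a tyrosine phosphatase that acts on MAP kinases, fell from 4.97 ± 0.873 to 0.247 ± 0.0845 CPM. IL33, an alarmin of epithelial nuclei, fell from 10.2 ± 2.37 to 1.62 ± 0.319 CPM. VIM, the intermediate filament vimentin, fell from 2.75 ± 0.514 to 0.559 ± 0.154 CPM, and MUC13, a transmembrane mucin of the gut, fell from 4.41 ± 0.275 to 0.988 ± 0.26 CPM.

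Other low genes had a less clear standing. UGT1A6, a glucuronosyltransferase whose gene shares exons with its neighbours so that the counting could split reads among them, fell from 26.1 ± 3.13 to 3.41 ± 0.972 CPM. Of the 25, C4orf48, LRRC26, TMEM160 and TMEM238 have transcripts of 72.3 to 74.7% GC and were not called at 12 h. TMEM160, for example, was at 33.9, 39.2 and 35.1 CPM in control, 37, 39.4 and 35 CPM at 12 h and 3.14, 5.05 and 6.51 CPM at 72 h. These 4 share their composition with the GC class of which 63.9% fell at 72 h. An offset for GC content and length moved the median of that class from -0.94 to -0.39, and with it the 4 genes still passed the test, at -2.38, -2.29, -2.36 and -1.90 in the order named. UQCRFS1P1, RPL39P3 and RPL41P2 are processed pseudogenes, and SNORD3B-1 and SNORD3B-2 are near-identical copies, so their counts are uncertain.

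**Figure D4:**
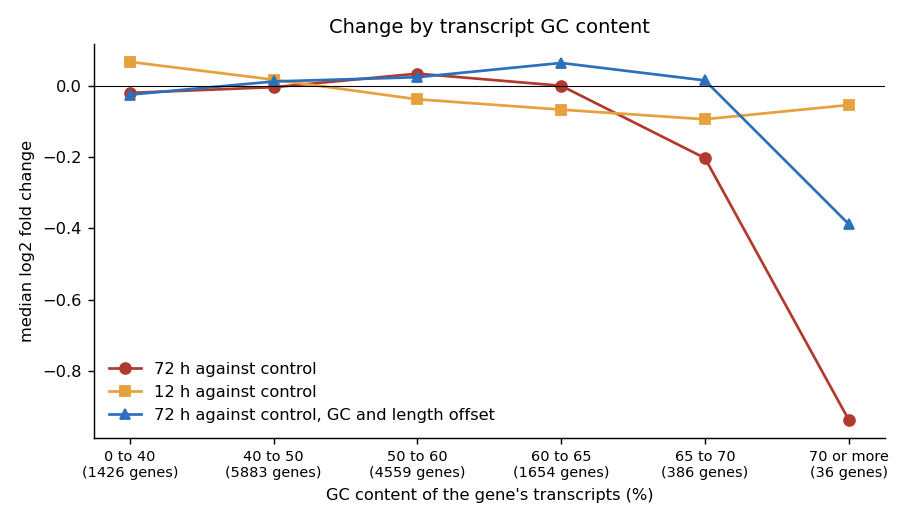
Median log2 fold change (vertical axis) of genes by the GC content of their transcripts (horizontal axis, with the number of genes in each class) at 72 h and at 12 h against the same control libraries, and at 72 h with an offset for GC content and length. At 72 h the 36 genes of 70% GC or more stood at -0.94 and those of 65 to 70% at -0.20, while the other classes were within 0.04 of no change.

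The 25 highest named genes held membrane, cytoskeletal and metabolic proteins. KLHL4, a kelch-family protein, was at 0.0984, 0.146 and 0.0558 CPM in control and 10.2, 10.1 and 9.46 CPM at 72 h, a rise of 6.52 (SE 0.356; edgeR adjusted p = 6.5e-13) from almost no reads. SH3PXD2A, the podosome scaffold TKS5, was at 1.97, 2.83 and 3.01 CPM in control and 27.7, 25.2 and 24.8 CPM at 72 h, 9.98-fold higher (edgeR adjusted p = 5.94e-16). CEMIP, a protein needed for the breakdown of hyaluronan, was at 40.6, 49.2 and 51.9 CPM in control and 265, 251 and 239 CPM at 72 h (2.41, SE 0.133; edgeR adjusted p = 1.49e-07). Each of these 3 genes was also above its 12 h level, at means of 0.385, 4.78 and 66.1 CPM.

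SLC2A12, a glucose transporter, rose from 8.51 ± 1.58 to 57.8 ± 3.56 CPM, and CYP26B1, which breaks down retinoic acid, rose from 16.4 ± 2.91 to 77 ± 0.983 CPM. Both had already risen at 12 h, to 23.3 and 34.6 CPM. DACT1, a Dishevelled-binding regulator of WNT signalling, rose from 0.372 ± 0.148 to 5.38 ± 1.00 CPM, and ADGRF1, an adhesion G protein-coupled receptor, rose from 1.69 ± 0.369 to 16 ± 1.16 CPM. BMF, a pro-apoptotic BH3-only protein, rose from 1.77 ± 0.444 to 13.4 ± 0.407 CPM, without a called change at 12 h (0.12). CYP1A1, a monooxygenase that ligands of the aryl hydrocarbon receptor induce, rose from 1.54 ± 0.218 to 14.2 ± 1.60 CPM, and was not called at 12 h (-0.28). Indole compounds can be such ligands, and the part of IAA in that value was not tested. ITIH2, a hyaluronan-associated plasma protein, rose from 0.66 ± 0.196 to 6.77 ± 0.699 CPM; it belongs to the liver list above. ITGA1, the collagen-binding integrin subunit, rose from 1.57 ± 0.054 to 8.37 ± 0.621 CPM, and KIF26B, an atypical kinesin, rose from 2.15 ± 0.228 to 11.7 ± 0.578 CPM.

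Genes that were nearly absent on one side were counted without a fold where the other side held 1 to 3 counts. There were 28 genes with at least 30 counts over the control libraries, at least 5 in each, and at most 3 over the 72 h libraries, and 23 the other way round. Among the 28, 15 were protein-coding and 8 antisense, and 12 overlap another counted gene. KRT6B, at 124 counts against 0, was at least 49.7-fold lower, taking 3 counts in the 72 h group as the floor, and GABRP, a GABA receptor subunit, at least 45.3-fold lower. Among the 23, APOA1 was at least 34.6-fold higher, and DKK1, a secreted WNT antagonist, had 66 counts against 1. ENSG00000285283, which has no symbol in the tables used, had 1616 counts against 0, at least 448-fold higher; it overlaps RCN1 on the same strand, and the counting could split reads between them.

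Tight junction transcripts did not fall as a group with CLDN2. Of 11 claudins tested, 2 rose and 4 fell, against 4 and 4 under total-count scaling, and 9 were too low to test. CLDN3, a sealing claudin, fell from 24 ± 2.12 to 15.1 ± 1.68 CPM, CLDN7, which supports epithelial adhesion, fell from 336 ± 9.56 to 253 ± 6.24 CPM, and CLDN12 rose from 33.8 ± 2.06 to 40.9 ± 1.79 CPM. Of 22 scaffold and polarity genes, 8 rose and 4 fell, with a median of 0.08. CGN, the junctional adaptor cingulin, was at 49, 62.9 and 58.5 CPM in control and 115, 113 and 111 CPM at 72 h (0.99), and TJP3, the scaffold ZO-3, rose from 37.6 ± 5.22 to 69.3 ± 2.37 CPM. The groups of CGN did not overlap, and its mean at 12 h was 60.7 CPM. CXADR, a junctional adhesion receptor, fell from 96.9 ± 4.79 to 73.2 ± 1.24 CPM.

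Desmosome and keratin genes were called in both directions, as were all genes tested, at 28.3% higher and 29.5% lower. The shares were 33.3% and 41.7% for desmosome and gap junction genes and 46.7% and 26.7% for keratins. Of 12 desmosome and gap junction genes, 4 rose and 5 fell (5 and 4 under total-count scaling). DSC2, a desmosomal cadherin, was at 9.16, 7.89 and 9.20 CPM in control, 17.7, 16.5 and 16.3 CPM at 12 h and 33.5, 35.2 and 34.2 CPM at 72 h. It rose by 1.97 (SE 0.0827; edgeR adjusted p = 1.36e-15), with no overlap between the groups, while the plaque proteins PKP2 and PKP3 fell by 0.31 and 0.39. With the offset for GC content and length, PKP3 no longer passed (-0.04; edgeR adjusted p = 0.385). Of 15 keratins, 7 rose and 4 fell, among the latter KRT6B and KRT23 at the low counts of their lineage list (34, 31 and 27 for KRT23 in control and 2, 3 and 2 at 72 h). KRT20, a keratin of mature colonic cells, was at 44.5, 42.4 and 44.3 CPM in control and 106, 110.5 and 112 CPM at 72 h. It rose by 1.33 (SE 0.059; edgeR adjusted p = 3.81e-15), and KRT19 rose from 1210.0 ± 81.6 to 1735 ± 66.5 CPM. Of 6 mucins and CEACAMs, 1 rose (MUC20) and 2 fell (MUC1 and MUC13), against 1 and 1 under total-count scaling. MUC1 lost its call under 13 of the 15 alternatives tried, the offset for GC content and length among them.

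The stem cell list did not follow LGR5. Of 18 members tested, 9 rose and 8 fell (9 and 9 with the offset for GC content and length), with a median of 0.03. PTK7, a receptor-like pseudokinase of WNT signalling, was at 105, 108 and 109 CPM in control and 265, 268 and 259 CPM at 72 h, a rise of 1.30 (SE 0.0551; edgeR adjusted p = 1.8e-15). AXIN2, a feedback inhibitor that beta-catenin induces, was at 299.5, 311 and 311 CPM in control and 549.6, 549.7 and 555 CPM at 72 h, a rise of 0.84 (SE 0.0416; edgeR adjusted p = 2.86e-14). ASCL2, a helix-loop-helix factor of the stem cell programme, was at 149, 177 and 187 CPM in control and 77.6, 78.8 and 80.4 CPM at 72 h, a fall of 1.11 (SE 0.063; edgeR adjusted p = 1.35e-12). In none of the 3 did the groups overlap. AXIN2 and ASCL2 had not passed the test at 12 h.

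Markers of mature cells were thin in this line. Of 35 enterocyte and brush border genes, 9 could be tested, 3 rose and 3 fell (4 and 3 under total-count scaling and with the offset for GC content and length). KRT20 and the actin linker EZR, which rose from 686 ± 52.3 to 852 ± 21.6 CPM, were among those that rose, the rest being APOA1 at the counts above, while the cadherin CDH17 fell from 74.2 ± 3.23 to 47.8 ± 1.00 CPM. Of 26 secretory lineage genes, 7 could be tested and 4 rose. They were the Notch ligands DLL1 and DLL4, the trefoil peptide TFF3 and AGR2, a disulfide isomerase of mucus-making cells, which rose from 299 ± 39 to 399 ± 8.55 CPM. Of 23 gut and endoderm transcription factors, 11 rose and 7 fell. KLF4, a factor of differentiated gut epithelium, rose from 32.6 ± 1.06 to 57.7 ± 3.26 CPM, VDR, the vitamin D receptor, rose from 63.6 ± 3.03 to 101 ± 2.11 CPM, MYB rose from 19.5 ± 1.63 to 36.9 ± 1.07 CPM, and the nuclear receptor NR2F6 fell from 106 ± 12.4 to 47.8 ± 2.38 CPM. Of the 8 epithelial identity genes tested, 3 rose and 4 fell (3 and 3 under total-count scaling), among the latter EPCAM, which fell from 930.3 ± 15 to 689.6 ± 17.1 CPM, and CDX2, a caudal homeobox factor of the intestine, which fell from 206 ± 4.78 to 162 ± 4.58 CPM but was higher at 72 h on log2(TPM + 0.5) (0.21; limma adjusted p = 0.0381).

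WNT signalling had more members up than down. Of 31 ligands, receptors and regulators, 15 rose and 7 fell. WNT7B, a ligand, rose from 4.55 ± 0.276 to 11.1 ± 0.482 CPM, and LEF1, a partner of beta-catenin on DNA, rose from 42.2 ± 1.33 to 75.6 ± 2.59 CPM. Of 19 Notch genes, 8 rose and 4 fell: LFNG, a glycosyltransferase that tunes Notch receptors, rose from 0.946 ± 0.203 to 3.96 ± 0.217 CPM, and the targets HES4 and NRARP fell by 1.73 and 0.98. Of 10 hedgehog genes, 6 rose and 1 fell; the receptor PTCH1 rose from 41.2 ± 2.29 to 74.1 ± 2.31 CPM and the effector GLI2 rose from 0.469 ± 0.166 to 1.44 ± 0.0361 CPM. SOX4 rose from 110.4 ± 3.20 to 204 ± 5.99 CPM and SOX9 rose from 229 ± 17.1 to 309 ± 7.31 CPM, 2 of 5 SOX factors tested. Of 25 HOX genes, 11 rose and 0 fell, with HOXA7 from 29.4 ± 1.69 to 41.3 ± 1.34 CPM and HOXB3 from 43.6 ± 5.97 to 62.3 ± 5.67 CPM; at 12 h, 1 of the HOX genes had risen and 0 had fallen.

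Guidance receptors and growth factor genes shared that balance. Of 24 semaphorins, plexins and neuropilins, 16 rose and 4 fell, with a median of 0.41. NRP1, a co-receptor for semaphorins and VEGF, was at 102, 102 and 99.5 CPM in control and 43.4, 41.9 and 42.9 CPM at 72 h. It fell by 1.24 (SE 0.0491; edgeR adjusted p = 5.01e-16) with no overlap, against its list, while SEMA4C rose from 7.61 ± 0.0667 to 15.7 ± 0.409 CPM and PLXNA2 rose from 5.65 ± 0.442 to 12.3 ± 0.581 CPM. Of 14 ephrins and receptors, 6 rose and 1 fell, the latter being EPHB6, which fell from 23.9 ± 0.552 to 15.4 ± 1.29 CPM. Of 27 IGF and FGF genes, 17 rose and 6 fell; IGF2 rose from 1.06 ± 0.201 to 3.79 ± 0.234 CPM, FGFBP1, which releases FGFs from the matrix, rose from 14.3 ± 1.31 to 24.9 ± 1.61 CPM, and FGF2 fell from 8.70 ± 1.52 to 4.54 ± 0.201 CPM.

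Transcripts linked to receptor tyrosine kinases were mixed. Of 10 EGFR family genes, 4 rose and 3 fell (4 and 0 under total-count scaling); ERBB3 rose from 69.7 ± 6.23 to 108 ± 3.95 CPM and the ligand HBEGF rose from 1.91 ± 0.347 to 4.14 ± 0.38 CPM. Of 21 MAPK output genes, 11 rose and 5 fell, with PHLDA1 and ETV5 up by 0.76 and 0.65 and the phosphatase DUSP1 down by 1.26. Of 19 immediate early genes, 2 rose and 6 fell, a share of 31.6% lower that is close to the 29.5% of all genes. JUN, a subunit of AP-1, was at 49.1, 62.1 and 57.2 CPM in control and 16.7, 21.2 and 20.4 CPM at 72 h, a fall of 1.53 (SE 0.111; edgeR adjusted p = 2.17e-08). FOS, its partner, was at 18.5, 22.5 and 33.3 CPM in control and 18.4, 19 and 32.7 CPM at 12 h. The washout libraries held 5.75, 6.52 and 7.11 CPM and the 72 h libraries 5.55, 4.71 and 4.79 CPM. The washout libraries lay just above those at 72 h and below every control and 12 h library. Of 22 YAP targets, 9 rose and 6 fell, among them NT5E, the ecto-enzyme CD73 that makes adenosine, which rose from 158 ± 17.5 to 364 ± 4.81 CPM.

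Transcripts of cell surface and matrix genes moved in both directions, and the proteins were not measured. Integrins were 53.3% higher and 26.7% lower, beside 28.3% and 29.5% of all genes tested. The shares for epithelial-mesenchymal transition genes were 41.2% and 29.4%. Of 15 integrins, 8 rose and 4 fell: besides ITGA9 and ITGA1, the collagen receptor subunit ITGA2 fell from 77.2 ± 4.04 to 35.6 ± 3.51 CPM and ITGB6, which activates TGF-beta, rose from 10.7 ± 0.618 to 20 ± 1.55 CPM. Of 19 basement membrane and collagen genes, 4 rose and 8 fell (6 and 7 under total-count scaling). FRAS1, a basement membrane protein, was at 113, 113 and 117 CPM in control and 45.3, 36.5 and 35.9 CPM at 72 h, a fall of 1.54 (SE 0.124; edgeR adjusted p = 1.62e-06) with no overlap, and LAMA2 fell from 3.79 ± 0.152 to 1.22 ± 0.114 CPM. Of 24 extracellular proteases and inhibitors, 12 rose and 3 fell (15 and 6 with the offset for GC content and length); KLK10, a kallikrein-like peptidase, rose from 34.8 ± 2.12 to 81.7 ± 4.92 CPM, and TIMP2 rose from 146 ± 6.79 to 214 ± 4.06 CPM. Of 21 tetraspanins, 10 rose and 8 fell; TSPAN1 rose from 27.3 ± 1.53 to 82.3 ± 1.49 CPM and TSPAN8 fell from 131 ± 7.62 to 65.3 ± 2.35 CPM. Of 17 genes of epithelial-mesenchymal transition, 7 rose and 5 fell, with the epithelial factors GRHL2 and OVOL1 up by 0.58 and 0.95, S100A4 up by 1.81 and VIM down as above.

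Actin regulators went mostly down, with 8 of 36 higher and 20 lower (12 and 15 under total-count scaling). ARPC2, a subunit of the Arp2/3 complex, fell from 317 ± 8.45 to 213 ± 4.79 CPM, TAGLN2 fell from 205 ± 7.79 to 121 ± 5.15 CPM, and GSN, the severing protein gelsolin, rose from 108 ± 5.64 to 215 ± 5.77 CPM. Of 30 kinesins and spindle genes, 15 rose and 1 fell, the latter the checkpoint protein MAD2L1; CENPE, a kinetochore motor, rose from 19.2 ± 0.935 to 40.7 ± 3.19 CPM.

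Of 7 chemokines tested, 2 rose and 5 fell; beside CXCL5, CXCL16 fell from 75.5 ± 3.77 to 55.4 ± 2.84 CPM, a call not made on log2(TPM + 0.5) (limma adjusted p = 0.121). Of 25 cytokine and receptor genes, 9 rose and 4 fell; LIF rose from 16.8 ± 3.73 to 37.9 ± 0.468 CPM and IL32 fell from 8.12 ± 1.30 to 3.12 ± 0.565 CPM. Of 18 NF-kB genes, 3 rose and 6 fell (4 and 4 under total-count scaling). Of 25 interferon-stimulated genes, 14 rose and 3 fell, none of them called at 12 h; IFIT1 rose from 3.00 ± 0.85 to 7.41 ± 0.533 CPM and OAS1, which senses double-stranded RNA, rose from 11.9 ± 0.0873 to 21.9 ± 0.729 CPM. Of 21 antigen presentation genes, 5 rose and 8 fell, which turned to 9 and 5 under total-count scaling and became 8 and 8 with the offset for GC content and length; B2M, the light chain of class I molecules, fell from 84.4 ± 3.88 to 53.6 ± 2.60 CPM.

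Transporter transcripts for amino acids fell more often than they rose, by a margin that depended on the scaling, and others were mixed. Of 20 amino acid transporters, 2 rose and 12 fell (6 and 7 under total-count scaling); SLC1A3, a glutamate carrier, fell from 20.1 ± 2.57 to 5.32 ± 0.677 CPM and SLC7A7 fell from 8.42 ± 0.534 to 2.68 ± 0.323 CPM. Of 16 sugar and lactate transporters, 4 rose and 4 fell (5 and 4 under total-count scaling, 5 and 6 with the offset for GC content and length). SLC2A10 rose from 3.98 ± 0.634 to 14.8 ± 0.223 CPM and SLC2A3 fell from 57.9 ± 2.22 to 36.2 ± 0.932 CPM. Of 22 channel and sodium transport genes, 13 rose and 6 fell. KCNE3, a potassium channel subunit used in chloride secretion, rose from 64.2 ± 0.244 to 104 ± 3.28 CPM, while CLCN5, an endosomal chloride exchanger, fell from 12.1 ± 1.33 to 4.12 ± 0.888 CPM. Of 10 metallothionein and zinc transport genes, 2 rose and 6 fell. SLC30A10, which exports manganese, rose from 2.33 ± 0.269 to 11.6 ± 0.8 CPM, and MT1E and MT1X fell by 0.66 and 0.78, with the caution that metallothionein genes are close paralogs. Of 15 purine signalling genes, 3 rose and 5 fell (4 and 3 under total-count scaling), with ENTPD3 up by 1.61.

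Transcripts of drug handling did not follow ABCB1 alone. Of 20 ABC transporters, 6 rose and 9 fell (6 and 6 under total-count scaling). ABCC3, an exporter of conjugates, rose from 19.7 ± 0.815 to 41.9 ± 3.37 CPM, ABCC4 fell from 103 ± 7.76 to 70.2 ± 1.07 CPM, and ABCB10, a mitochondrial member, fell from 50 ± 2.74 to 35.2 ± 0.306 CPM. Of 22 conjugating enzymes, 4 rose and 10 fell; GSTM4, one of a family of close paralogs, fell from 64.8 ± 2.90 to 30.1 ± 1.00 CPM, UGT8 fell from 10.1 ± 0.603 to 3.16 ± 0.297 CPM, and SULT1C2 rose from 4.52 ± 0.364 to 13.2 ± 1.35 CPM. Of 23 cytochromes P450 and aldehyde-oxidising enzymes, 11 rose and 4 fell. CYP1B1 was at 24.1, 21.8 and 23.6 CPM in control, 20.6, 18.8 and 18.3 CPM at 12 h and 45.7, 46.2 and 46.8 CPM at 72 h, so that it fell at 12 h (-0.27) and rose at 72 h (1.00), and CYP2J2, an arachidonic acid epoxygenase, fell from 37 ± 3.13 to 15.6 ± 0.65 CPM.

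The broadest falls were in genes for making ribosomes and proteins. Of 50 ribosome biogenesis genes, 1 rose and 44 fell, with a median of -0.46, and 3 and 40 under total-count scaling. RRP12, a factor in the export and maturation of ribosomal subunits, was at 134, 151 and 137 CPM in control and 59.1, 65.6 and 63.1 CPM at 72 h, a fall of 1.17 (SE 0.0597; edgeR adjusted p = 6.45e-14). HEATR1, a component of the small subunit processome, was at 185, 175 and 185 CPM in control and 89.1, 88.4 and 85 CPM at 72 h, a fall of 1.05 (SE 0.0559). Neither gene's groups overlapped. The polymerase I subunit POLR1B fell by 0.73. At 12 h, against the same controls, 1 of the 50 had risen and 34 had fallen, where 3.35% of all genes were lower.

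Of 76 mitochondrial ribosomal protein genes, 0 rose and 62 fell, with a median of -0.35, and 7 had fallen at 12 h. MRPS34 fell from 189.8 ± 6.31 to 99.4 ± 9.24 CPM and MRPL4 fell from 134 ± 7.26 to 74.8 ± 3.15 CPM. Of 41 translation factors, 7 rose and 28 fell; EIF5A, the hypusine-bearing elongation factor, was at 1364, 1452 and 1383 CPM in control and 674, 727 and 719.6 CPM at 72 h, a fall of close to 1 on the log2 scale (-0.99), while EIF4B rose from 508 ± 18.6 to 682 ± 16 CPM. Of 22 aminoacyl-tRNA synthetases, 3 rose and 11 fell (6 and 6 under total-count scaling), and FARSB fell from 150.0 ± 7.11 to 88.6 ± 2.68 CPM. Of 27 nucleotide synthesis genes, 0 rose and 23 fell: PFAS, an enzyme of purine synthesis, fell from 69.2 ± 3.07 to 33.1 ± 1.87 CPM, DUT fell from 152 ± 5.33 to 79.9 ± 8.27 CPM, and TYMS, which makes thymidylate, fell from 336 ± 5.55 to 218 ± 8.18 CPM.

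Genes of protein quality control were divided, with more falls among chaperones and the proteasome. Of 23 cytosolic and mitochondrial chaperones, 0 rose and 17 fell, 3 and 14 under total-count scaling. HSP90AB1, the constitutive HSP90, was at 3679, 3772 and 3671 CPM in control and 2650.0, 2736 and 2632 CPM at 72 h, a small fall (-0.47) that did not overlap, and CCT4, a subunit of the chaperonin for actin and tubulin, fell from 993 ± 16.5 to 729 ± 22 CPM. Of 31 proteasome genes, 3 rose and 22 fell; PSMB2 fell from 266 ± 4.58 to 192 ± 10.3 CPM. Of 20 genes of the endoplasmic reticulum response, 3 rose and 9 fell, which turned to 8 and 5 under total-count scaling; SDF2L1 fell from 74.4 ± 5.86 to 35.6 ± 4.39 CPM and HSPA5 fell from 1044 ± 72.2 to 822 ± 15 CPM. Of 21 ATF4-linked genes, 10 rose and 6 fell, with the stress factor DDIT3 up by 1.59 and ALDH18A1, of proline synthesis, down by 0.71. Of 29 lysosome and autophagy genes, 13 rose and 7 fell; CTSB rose from 224 ± 11.1 to 352 ± 13.7 CPM and ULK1, the autophagy-initiating kinase, rose from 17.2 ± 1.90 to 27.8 ± 1.30 CPM.

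**Figure D5:**
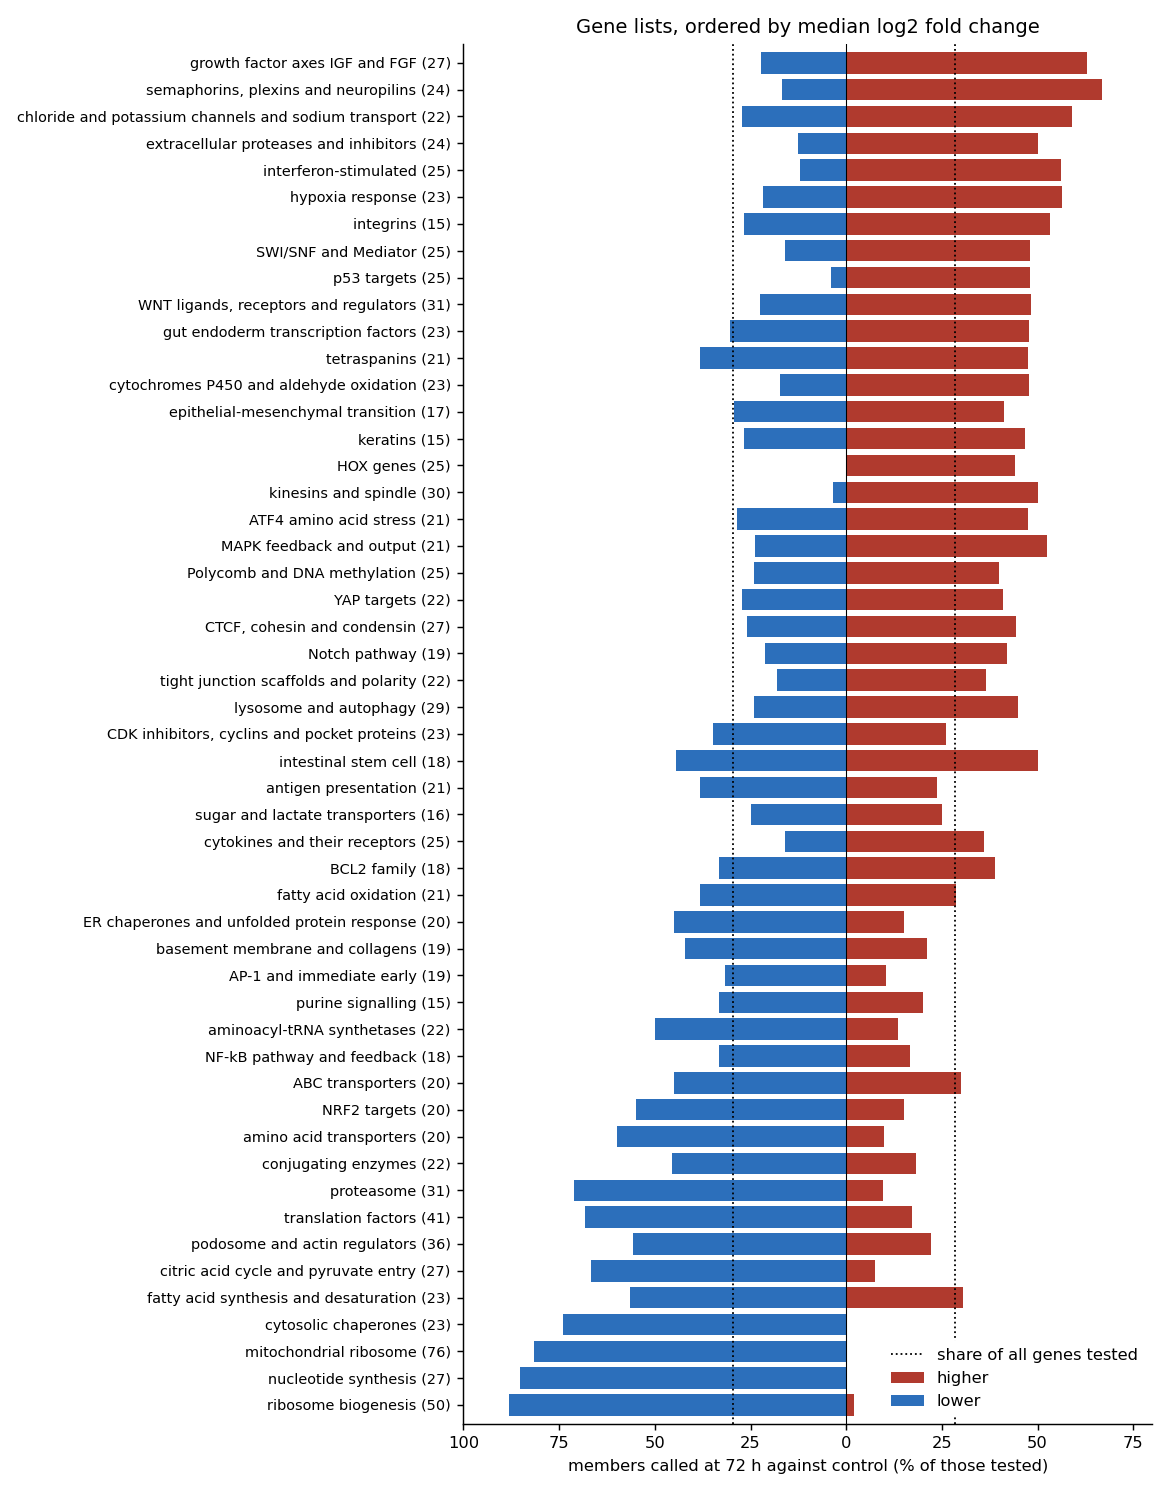
Share of tested members higher (red, to the right) and lower (blue, to the left) at 72 h for lists with at least 15 members tested. The list of nuclear and host noncoding RNAs is left out. Lists are ordered by median log2 fold change, with the number tested in brackets. Dotted lines mark the shares over all genes tested, 28.3% and 29.5%. Ribosome biogenesis, nucleotide synthesis, the mitochondrial ribosome and cytosolic chaperones lie at the lower end and growth factor axes and semaphorins at the upper end.

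Transcripts of central metabolism fell in part. Of 27 citric acid cycle genes, 2 rose and 18 fell; CS, citrate synthase, fell from 323 ± 6.98 to 236 ± 2.65 CPM, SDHD fell from 138 ± 5.30 to 78.5 ± 2.05 CPM, and IDH2 rose from 42.6 ± 2.58 to 84.2 ± 4.23 CPM. Of 21 fatty acid oxidation genes, 6 rose and 8 fell (8 and 8 under total-count scaling). CPT1A, which admits fatty acids to mitochondria, rose from 9.88 ± 1.52 to 24.9 ± 1.88 CPM, and the thiolase ACAA2 fell from 514 ± 9.87 to 250.3 ± 4.09 CPM. Of 23 fatty acid synthesis genes, 7 rose and 13 fell; SCD, the main desaturase of saturated fatty acids, fell from 597 ± 27.1 to 456 ± 15 CPM and SCD5 rose from 17.9 ± 2.40 to 30.3 ± 2.77 CPM. Of 20 NRF2 targets, 3 rose and 11 fell. ME1, malic enzyme, was at 318, 277 and 286 CPM in control and 141, 139.6 and 142 CPM at 72 h, a fall of 1.06 (SE 0.0489; edgeR adjusted p = 7.61e-15) with the groups well apart. Of 23 hypoxia response genes, 13 rose and 5 fell. EPAS1, the hypoxia-inducible factor HIF-2 alpha, was at 23.8, 24.8 and 26.9 CPM in control and 70.3, 69.2 and 66.9 CPM at 72 h, a rise of 1.45 (SE 0.0848; edgeR adjusted p = 4.37e-12), and NDRG1 rose from 34.8 ± 3.08 to 88.7 ± 4.08 CPM.

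More p53 targets rose than fell. Of 25 members tested, 12 rose and 1 fell; DLD-1 is known to carry a mutant p53. CDKN1A, the CDK inhibitor p21, was at 10.5, 12.2 and 11.8 CPM in control, 15.9, 17 and 15.9 CPM at 12 h and 26.5, 25.9 and 24.4 CPM at 72 h, a rise of 1.15 (SE 0.0872; edgeR adjusted p = 5.79e-11). Its groups did not overlap, and SESN2 rose from 18.2 ± 1.17 to 27.2 ± 1.21 CPM. Of 23 CDK inhibitors, cyclins and pocket proteins, 6 rose and 8 fell, which turned to 13 and 7 under total-count scaling and became 8 and 8 with the offset for GC content and length. CDK4 fell from 228 ± 2.31 to 148 ± 5.63 CPM and CDKN1B, the inhibitor p27, rose from 83.8 ± 2.93 to 116 ± 4.58 CPM. Of 18 BCL2 family genes, 7 rose and 6 fell (6 and 6 with the offset for GC content and length); besides BMF, BCL2L1, which protects from apoptosis, rose from 261 ± 3.15 to 345 ± 7.01 CPM, and the pro-apoptotic BIK fell from 24 ± 0.191 to 10.9 ± 1.26 CPM.

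Chromatin genes shifted slightly. Of 25 SWI/SNF and Mediator genes, 12 rose and 4 fell; ARID1B rose from 31.3 ± 1.02 to 50.5 ± 2.07 CPM. Of 27 genes of CTCF, cohesin and condensin, 12 rose and 7 fell, with the cohesin subunit SMC3 up by 0.33 and the condensin subunit NCAPD2 down by 0.31. Of 25 Polycomb and DNA methylation genes, 10 rose and 6 fell; DNMT3A rose from 20.9 ± 1.55 to 32.9 ± 1.56 CPM and BMI1 fell from 114 ± 13 to 76.6 ± 2.94 CPM. Of 18 nuclear and snoRNA host RNAs, 4 rose and 7 fell, and DANCR fell from 63.4 ± 3.25 to 32.2 ± 2.87 CPM. Among the small structural RNAs the signal recognition particle RNA RN7SL2 was at 22.1, 23 and 18.5 CPM in control and 106, 88.2 and 89.9 CPM at 72 h, which is the library measure given above and was read from poly-A selected RNA.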

How the data were processed

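RNA of DLD-1 cells was sequenced from directional poly-A selected libraries, per the labels' protocols. Trim Galore 0.6.10, RSEM, STAR and the build hg38 are named in the submitters' processing notes with no roles; the annotation release and strand setting are not given in the sources used here. The authors deposited expected counts and TPM per gene for each library. Expected counts were rounded and fitted in R 4.3.3 with edgeR 4.0.16 (filterByExpr, TMM scaling, robust quasi-likelihood) over 12 degron libraries in 4 groups, and p-values were adjusted by Benjamini-Hochberg over 14029 genes. The SE is the size of the log2 change over the square root of F. The alternatives used DESeq2 1.42.0 and limma 3.58.1 on the authors' TPM. Symbols came from a reference table, coordinates and transcript composition from GENCODE, and promoters from RefSeq. The 72 h and 12 h comparisons share control libraries. The SE comes from the quasi-likelihood fit, so it takes in the spread between libraries as well as counting error. Simulated data held 200 changed genes among 14029, drawn above a minimum level and split evenly between directions. There, 78%, 92%, 98% and 100% of changes of 1.5, 2, 4 and 8-fold were recovered, and 7 unchanged genes were called. That setting changed far fewer genes than the 57.8% called at 72 h, so it does not show recovery in these data. Members, 69 gene lists, tests and named genes (the 4 markers and GATA6, the 25 highest and lowest of mean log2 CPM of at least 1, up to 4 per list by p) were chosen with earlier results of these data known; the liver and basal lists were added after their values were seen.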

Additional observations from a re-analysis of the deposited data

How the results depend on the processing

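Of the 8104 genes called at 72 h against control, the count ranged from 7257 to 7685 when 1 library was left out, and was 8185 with the replicate number as a block, 8110 with median-ratio size factors and 7659 with DESeq2. Same-number control and 72 h libraries did not deviate together (correlations from -0.05 to -0.00), so the numbers were taken not to pair the samples. The lower genes (4140) became 2408 and 2404 on log2(TPM + 0.5) and log2(TPM + 1), and the 1069 genes of 2-fold or more became 648 and 432 there and 397 over genes of at least 5 CPM in either group; the cause was not tested beyond that construction. When 1 library was left out, higher genes ranged from 3526 to 3706, lower genes from 3731 to 3979 and 2-fold genes from 989 to 1106. The 7769 calls of 72 h against 12 h ranged from 6723 to 7650. The 1037 calls at 12 h became 353 and 357 on the TPM scales and 606 to 1170 with 1 library left out, the lowest without the first 12 h library (606) and without the second control library (623). Of the 177 genes named, CDX2 reversed on both TPM scales (0.21 and 0.21), and 21 of 2655 single-gene values lost their call, 13 of them of MUC1. The offset for GC content and length and the level minimum were added after the data were seen. Depth limits the low genes: below a mean of 1 CPM in both groups, 21.1% of 1277 genes were called, against 66.1% of 10538 at 5 CPM or more.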

Other observations

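Classes of noncoding gene at 72 h are read beside all 14029 genes tested, of which 28.3% rose and 29.5% fell. Of 564 antisense genes tested, 76 rose, 99 fell and 389 were not called, with a median log2 change of -0.07. Both shares were below those of all genes. Since the strand setting of the counting is not known, antisense reads and those of their partners cannot be told apart. Of 216 processed pseudogenes, 63 rose, a share near that of all genes, and 28 fell, a share below it. Their median was 0.32, and their reads are shared with parent genes. Of 402 long intergenic noncoding RNAs, 71 rose and 56 fell, both shares below those of all genes, with a median of 0.00. The share of genes called also depended on the mean level in the higher group. It was 21.1% under 1 CPM, 39.3% at 1 to 5 CPM and 66.1% at 5 CPM or more. The part of level in the lower shares of these classes was not tested.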
